A study of Mus musculus with 6 samples.

Results

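The cyclins and the Ink4 and Kip inhibitors form a set of 10 genes chosen by name, *Ccnd1*, *Ccnd2*, *Ccnd3*, *Ccne1*, *Ccne2*, *Ccna2*, *Ccnb1*, *Cdkn1b*, *Cdkn2a* and *Cdkn2b*, out of 23420 gene symbols in the deposited counts. All 10 were found and all 10 could be tested. Their levels were compared between wild type (WT) and *Patz1* knockout (KO) mouse embryonic stem cells (ESCs), to ask whether loss of PATZ1, a zinc finger protein, changes the expression of the genes that time cell division. Each genotype had 3 ribosomal RNA-depleted RNA-seq libraries of the E14 line, and both genotypes were grown in standard medium to which LIF, a MEK inhibitor and a GSK3 inhibitor had been added, so that these kinases were inhibited in the controls as well. The knockout was made with CRISPR/Cas9 and single clones were picked. The sample labels do not say how many clones the 3 KO libraries come from, so a difference between genotypes cannot be told apart from a difference between clones, and p-values measure the spread between these libraries.

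Cyclins are the regulatory subunits of cyclin-dependent kinases (CDKs), and their timed synthesis and destruction drive a cell from one phase of its cycle to the next. D-type cyclins activate CDK4 and CDK6 in response to growth signals, E-type cyclins activate CDK2 at the entry into DNA replication, cyclin A serves replication and the approach to mitosis, and cyclin B drives mitosis with CDK1. Ink4 proteins, among them those encoded by *Cdkn2a* and *Cdkn2b*, block the D-type cyclin kinases, whereas the Kip protein encoded by *Cdkn1b* binds cyclin-CDK complexes and inhibits CDK2 in particular. ESCs are known for a short first gap phase, high cyclin E activity and low levels of Ink4 inhibitors. In bulk samples, a change in the share of cells in a phase and a change in RNA per cell cannot be told apart.

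Stretches upstream of transcription starts are printed for *Ccnd3* and *Ccne1*, the genes that were called once libraries were paired by replicate number, and for *Cdkn2a*, whose single gene symbol covers transcripts from separate promoters. They are RefSeq sequences on GRCm38.p6 (the mm10 build), written 5′ to 3′ on the strand of the gene and 180 bases long, and none includes an annotated exon. *Ccnd3* and *Cdkn2a* each have a pair of starts. The distal start of *Cdkn2a* opens the Arf transcript and the proximal start the Ink4a transcript, so a count per gene mixes the RNA of both proteins. Capitals mark, on either strand, the GC box GGGCGG, the G-rich core GGGAGGG of the kind bound by MAZ, the box CCAAT, and the E2F-type sites TTTGGCGC, TTTCGCGC, TTTCCCGC and TTTGCCGC.
Ccnd3 distal start (chr17:47504871-47505050, plus strand): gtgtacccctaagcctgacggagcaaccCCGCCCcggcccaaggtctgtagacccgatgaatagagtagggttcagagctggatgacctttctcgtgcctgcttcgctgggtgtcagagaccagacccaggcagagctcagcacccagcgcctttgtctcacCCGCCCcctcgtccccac
Ccnd3 proximal start (chr17:47593256-47593435, plus strand): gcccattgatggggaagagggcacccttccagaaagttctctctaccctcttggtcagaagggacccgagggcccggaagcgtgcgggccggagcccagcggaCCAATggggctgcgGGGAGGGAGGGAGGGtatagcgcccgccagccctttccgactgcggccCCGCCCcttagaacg
Ccne1 (chr7:38107535-38107714, minus strand): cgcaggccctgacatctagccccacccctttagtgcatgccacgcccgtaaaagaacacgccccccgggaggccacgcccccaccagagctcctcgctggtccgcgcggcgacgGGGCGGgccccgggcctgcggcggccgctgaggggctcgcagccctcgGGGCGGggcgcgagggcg
Cdkn2a distal start (chr4:89294654-89294833, minus strand): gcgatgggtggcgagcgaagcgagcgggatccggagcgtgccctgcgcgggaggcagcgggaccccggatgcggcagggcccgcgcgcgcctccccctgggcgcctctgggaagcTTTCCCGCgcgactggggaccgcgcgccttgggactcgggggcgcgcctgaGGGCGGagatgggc
Cdkn2a proximal start (chr4:89282193-89282372, minus strand): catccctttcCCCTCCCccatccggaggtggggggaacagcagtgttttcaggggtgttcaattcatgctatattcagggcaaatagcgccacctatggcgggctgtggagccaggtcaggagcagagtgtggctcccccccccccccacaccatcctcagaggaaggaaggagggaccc

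The RefSeq table held windows for 6 of the 10 genes (*Ccnb1*, *Ccnd3*, *Ccne1*, *Cdkn1b*, *Cdkn2a* and *Cdkn2b*), 8 windows in all, each covering 250 bases before to 50 bases after a start. The GC box was in 8 of the 8 windows, against 35.7% of the 32851 windows of the table. GGGAGGG was in 3 of 8 windows (all windows, 22.0%): the proximal start of *Ccnd3*, where overlapping copies form the run of capitals above, the proximal start of *Cdkn2a*, and *Cdkn2b*. CCAAT was in 4 of 8 (all windows, 37.4%). An E2F-type site was in 1 of 8, the distal start of *Cdkn2a*, where TTTCCCGC begins 99 bases before the start (all windows, 2.26%). The cell cycle homology element, searched as TTTGAA or TTTAAA, was in 4 of 8 (all windows, 27.6%). These matches describe letters in the windows, and promoters rich in G and C hold some of these motifs more often.

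Libraries differed in depth and in RNA composition in the same way in both genotypes. Replicates 1 and 2 held between 37573923 and 47721070 counts, while the WT and KO replicate 3 libraries had totals of 11040756 and 11420268 and carried more ribosomal precursor RNA (*Rn45s*, 12.5% to 14.4% of counts against 1.79% to 3.03%). *Lars2* took 4.56% to 5.31% of counts in the replicate 3 libraries and 0.0512% to 0.162% in the others. *Patz1* itself gave 1838, 1983 and 1843 normalized counts (counts divided by a size factor per library) in WT and 853, 862 and 862 in KO, so that KO libraries kept 45.5% of the WT RNA level (DESeq2, log2 fold change -1.14, adjusted p = 1.58e-26). At the protein level, the study reports loss of the PATZ1 western blot signal in its knockout lines. The ESC markers fitted the label, with 0 of 8 markers called, a summed level of 117400 to 123700 normalized counts in WT and 127800 to 132600 in KO, and *Pou5f1* as the highest. With the replicate number as a block, a fit that called 14.6% of all genes (6.68% higher in KO), 3 of the 8 were called higher by DESeq2, *Pou5f1* (log2 fold change 0.14, adjusted p = 0.0405), *Zfp42* (0.15, adjusted p = 0.0298) and *Tdgf1* (0.18, adjusted p = 0.00881). Of 8 fibroblast markers, which would mark feeder cells, *Col3a1*, *Postn* and *Dcn* had at most 3 counts in every library, the sum was 233 to 261 in WT and 278 to 291 in KO, and *Pdgfrb* was the highest, but *Thy1* rose (log2 fold change 0.83, adjusted p = 0.0147 by DESeq2). The mean of *Thy1* went from 72.5 to 130, while KO means were 88.6% of WT for *Pdgfrb*, 79.4% for *Col1a1* and 59.9% for *Col1a2*, none of them called. None of 6 primitive endoderm markers (*Col4a1* highest, sums of 884 to 1325 in WT and 896 to 1292 in KO), 5 mesoderm markers (*Eomes* highest, 845 to 1140 and 671 to 1003) or 5 neural progenitor markers was called. The neural sum, carried mostly by *Nes*, was 789 to 882 in WT and 439 to 740 in KO, and *Nes* was called lower with the replicate number as a block (DESeq2, adjusted p = 0.000235, against 0.0509 without it). The part of these markers in the values below was not tested.

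None of the 10 cyclin and inhibitor genes passed the test between genotypes (DESeq2 Wald test, two-sided, Benjamini-Hochberg over all genes, threshold 0.05), where 7.49% of the 15309 genes tested did, 2.7% higher and 4.78% lower in KO. edgeR also called 0 of 10 (all genes, 6.41%), and 1 of 10 had an unadjusted p under 0.05 with either tool, *Ccnd3*, where 17.2% of all genes had one with DESeq2. Fold changes were above 0 on the log2 scale for 6 genes and below 0 for 4. The median absolute log2 fold change was 0.19 over the 10 genes, 0.16 over all genes tested, and 0.11 over the 8161 genes with a mean of at least 300 normalized counts, a level that 9 of the 10 reached. The block pairs libraries by the replicate number in their labels, which do not say that same-numbered libraries were made together. With the replicate number as a block 2 of the 10 were called, *Ccnd3* higher and *Ccne1* lower in KO, against 14.6% of all genes (6.68% higher and 7.95% lower).

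A fold change that misses the threshold does not show equal levels, so each gene was also tested for an absolute log2 fold change under 0.5. By this DESeq2 test 7 of 10 genes were within the bound, *Ccnd1*, *Ccnd3*, *Ccne1*, *Ccne2*, *Ccna2*, *Ccnb1* and *Cdkn1b*. Of the 12704 genes with an adjusted p in this test, 7411 (58.3%) were within it. Of genes with a mean of at least 300 normalized counts, 81.4% were. *Ccnd2*, *Cdkn2a* and *Cdkn2b* could not be placed within the bound in this fit. With the replicate block 8 of 10 were within it, *Ccnd2* being the addition (adjusted p = 0.0397). Over all genes 7666 of 19404 (39.5%) were. This share cannot be set beside 58.3%, because every gene with a count had an adjusted p in the blocked fit. Without the block the 95% intervals of the 3 genes reached 0.665-fold of WT for *Ccnd2*, 1.65-fold for *Cdkn2a* and 0.510-fold for *Cdkn2b*.

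**Figure D1:**
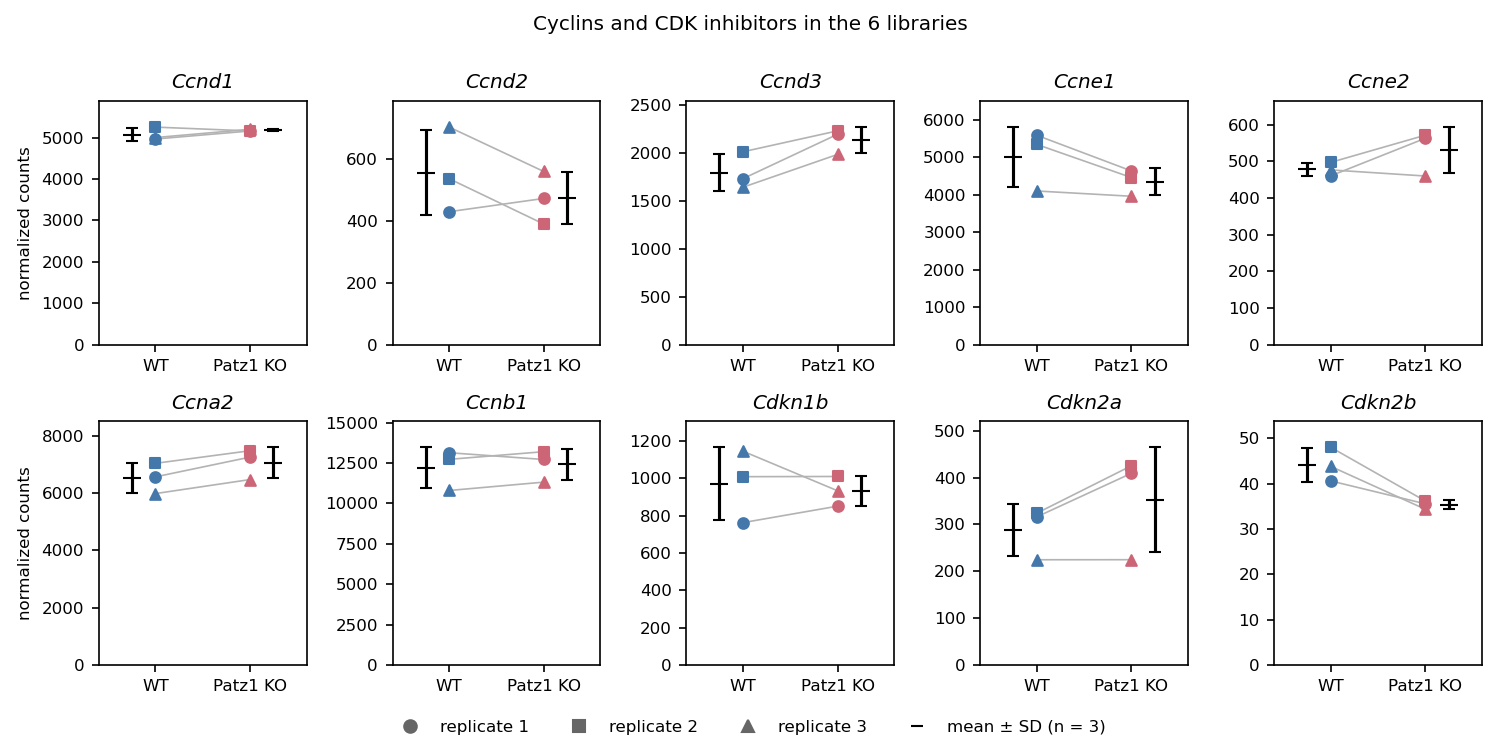
Normalized counts (y axes, each starting at 0) of the 10 genes in the 3 WT and 3 *Patz1* KO libraries, with lines joining libraries of the same replicate number and black bars giving mean ± SD. *Cdkn2b* is the single panel in which the genotypes do not overlap, and in the panels of *Ccne1*, *Ccna2*, *Ccnb1* and *Cdkn2a* both replicate 3 libraries (triangles) lie below the other 4.

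Among the D-type cyclins, *Ccnd1* had the smallest fold change and *Ccnd3* the smallest p, and *Ccnd3* was called higher in KO once libraries were paired. *Ccnd1* (chromosome 7, 144929931 to 144939925, minus strand), the main D cyclin of many proliferating cells, gave 4965, 5252 and 5000 normalized counts in WT and 5159, 5160 and 5198 in KO. The 3 KO values lay inside the WT range, and the log2 fold change was 0.027 ± 0.085 (SE; DESeq2, adjusted p = 0.937), with a 95% interval of 0.908-fold to 1.14-fold. Its exons overlap those of *LTO1* on the opposite strand, which was not analysed here.

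*Ccnd3* (chromosome 17, 47505051 to 47599691, plus strand), the D cyclin best known from blood cell precursors, gave 1732, 2013 and 1643 in WT and 2195, 2231 and 1985 in KO. The ranges met only between WT replicate 2 and KO replicate 3, and KO was higher in each same-numbered pair, by 0.34, 0.15 and 0.27 on the log2 scale. The mean was 1796 ± 193 (SD, n = 3) in WT and 2137 ± 133 in KO. The fold change was 0.25 ± 0.11 without the block (DESeq2, unadjusted p = 0.0267, adjusted p = 0.194) and 0.25 ± 0.076 with it, where it passed (adjusted p = 0.00889). The 3′ end of the annotated gene overlaps exons of *Bysl* on the opposite strand. How strand was used in counting is not given in the sources used here, and *Bysl* was not called (log2 fold change -0.060, adjusted p = 0.868 by DESeq2).

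*Ccnd2* (chromosome 6, 127125162 to 127152193, minus strand), the remaining D cyclin, varied more between libraries than *Ccnd1* and *Ccnd3*. It gave 430, 537 and 704 normalized counts in WT and 473, 390 and 560 in KO, with KO replicate 1 above its WT partner and the other KO libraries below theirs. The log2 fold change was -0.23 ± 0.19 (DESeq2, adjusted p = 0.638), and leaving out single libraries moved it between -0.39 and -0.048. It was also the single gene of the set that was higher in both replicate 3 libraries than in the other 4. On the opposite strand its exons overlap those of *Gm43126*, which was not analysed here, and of *9330179D12Rik*, which gave 2.86, 3.53 and 13.7 normalized counts in WT and 0, 0.593 and 2.64 in KO, near the floor of 3 counts.

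Levels of different genes are compared per length, as normalized counts per kb. With the union of annotated exons as length, *Ccnd1* made up 80.3% ± 0.855 (SD, n = 3) of the D-type cyclin level in WT and 78.9% ± 0.494 in KO, *Ccnd3* 15.2% ± 1.11 and 17.5% ± 1.06, and *Ccnd2* 4.41% ± 1.10 and 3.62% ± 0.652. The shares depend on the transcript taken as length, since *Ccnd3* has 21 annotated transcripts. With the longest transcript that is paired with a RefSeq mRNA, *Ccnd1* held 59.2% in WT and 56.0% in KO and *Ccnd3* 37.0% and 40.9%. The order *Ccnd1*, *Ccnd3*, *Ccnd2* was the same with either length and in each of the 6 libraries.

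Of the E-type cyclins, *Ccne1* was called lower in KO once libraries were paired, and *Ccne2* was not called. *Ccne1* (chromosome 7, 38097984 to 38107534, minus strand), which activates CDK2 for the start of DNA replication, gave 5591, 5347 and 4104 normalized counts in WT and 4640, 4464 and 3964 in KO. WT replicate 3 lay among the KO values, so the groups overlapped, yet each KO library was below the WT library of its number, with differences of -0.27, -0.26 and -0.050 on the log2 scale. Without the block the log2 fold change was -0.20 ± 0.13 (DESeq2, adjusted p = 0.447), and with it -0.20 ± 0.065 (adjusted p = 0.0177). It was also called when WT replicate 3 was left out (-0.33, adjusted p = 0.0197, where 5.46% of all genes were called lower) and when both replicate 3 libraries were left out (-0.26, adjusted p = 0.0241, all genes 5.52%). Leaving out other single libraries brought the log2 fold change as near to 0 as -0.12, without WT replicate 1, and it was not called there.

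*Ccne2* (chromosome 4, 11191351 to 11204779, plus strand), the second E cyclin, gave 460, 497 and 476 in WT and 563, 571 and 460 in KO. The replicate 1 and 2 libraries were higher in KO and the replicate 3 libraries were nearly equal, and the log2 fold change was 0.17 ± 0.14 (DESeq2, adjusted p = 0.620; 0.426 with the block). It overlaps exons of *Ints8* on the opposite strand, whose log2 fold change was 0.18 (adjusted p = 0.589 by DESeq2). Per kb of exon union, *Ccne1* made up 93.1% ± 1.13 of the E-type cyclin level in WT and 91.5% ± 0.382 in KO. In replicate 3 its share was 91.9% in both genotypes.

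Neither the cyclin of mitosis nor that of replication was called. *Ccnb1* (chromosome 13, 100778650 to 100786570, minus strand), the CDK1 partner that drives entry into mitosis, gave 13139, 12731 and 10802 normalized counts in WT and 12722, 13204 and 11318 in KO. The ranges overlapped almost wholly, with a log2 fold change of 0.022 ± 0.11 (DESeq2, adjusted p = 0.959) and an interval of 0.877-fold to 1.18-fold. *Ccna2* (chromosome 3, 36564865 to 36572150, minus strand), which acts in replication with CDK2 and later with CDK1, gave 6566, 7040 and 5983 in WT and 7255, 7479 and 6472 in KO. KO was the higher library in each pair, by 0.14, 0.087 and 0.11 on the log2 scale, but the groups overlapped and neither fit called the gene (log2 fold change 0.11 ± 0.10, adjusted p = 0.688 by DESeq2 and 0.169 with the block). Leaving out single libraries moved its log2 fold change between 0.055, without WT replicate 3, and 0.17, without KO replicate 3. *Exosc9*, which shares exon sequence with *Ccna2* on the opposite strand, had a log2 fold change of -0.077 (adjusted p = 0.860 by DESeq2).

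The Kip inhibitor *Cdkn1b* (chromosome 6, 134920401 to 134925513, plus strand), whose protein restrains CDK2, gave 762, 1008 and 1145 normalized counts in WT and 850, 1009 and 933 in KO. The 3 KO values lay within the WT range, and the pair differences had no common direction, at 0.16, 0.0015 and -0.29 on the log2 scale. The log2 fold change was -0.051 ± 0.15 (DESeq2, adjusted p = 0.935), within the bound of 0.5 (adjusted p = 0.00408 for that test).

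The Ink4 genes of the set lie side by side on chromosome 4. *Cdkn2a* (89274471 to 89294653, minus strand), which encodes both Ink4a and the p53 activator Arf, gave 316, 324 and 225 normalized counts in WT and 409, 425 and 225 in KO. Replicates 1 and 2 were higher in KO by 0.37 and 0.39 on the log2 scale, whereas the replicate 3 libraries, with 82 and 85 raw counts, differed by 0.00065. The log2 fold change was 0.30 ± 0.22 (DESeq2, adjusted p = 0.564; 0.190 with the block). It was 0.50 without KO replicate 3 (adjusted p = 0.0671) and 0.15 at its lowest when another single library was left out.

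*Cdkn2b* (89306299 to 89311039, minus strand), which encodes the neighbouring Ink4 protein, had the fewest counts of the 10 genes, with 40.6, 48.0 and 43.8 normalized counts in WT and 35.6, 36.2 and 34.4 in KO. All 3 KO values lay below all 3 WT values, a separation that 25.6% of the genes tested showed in either direction and 1 of the 10 genes here. The raw counts behind these values were few, 71, 68 and 16 in WT and 63, 61 and 13 in KO, and the exact 95% Poisson interval of the 13 counts runs from 6.92 to 22.2. The fold change was not called, at -0.31 ± 0.34 (DESeq2, adjusted p = 0.762; 0.706 with the block), and its 95% interval runs from 0.510-fold to 1.27-fold.

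**Figure D2:**
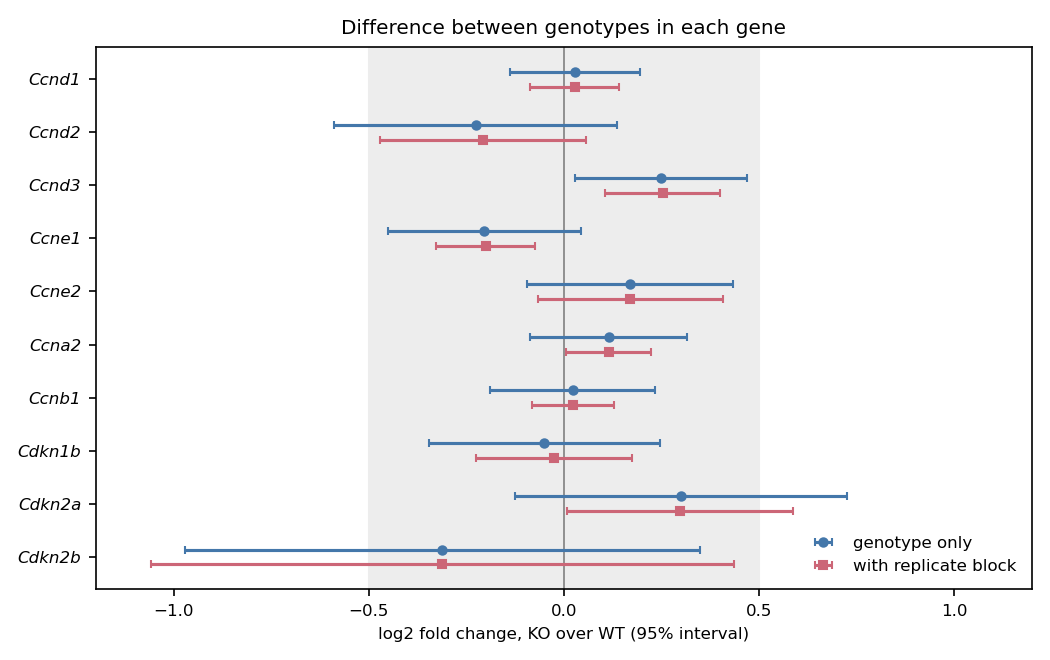
Log2 fold change of KO over WT (x axis) for each of the 10 genes, with 95% intervals, from the DESeq2 fit of genotype alone (circles) and with the replicate number as a block (squares). The grey band marks an absolute value under 0.5. The block shortens the intervals of 9 of the 10 genes, that of *Cdkn2b* excepted, and lies clear of 0 for *Ccnd3*, *Ccne1*, *Ccna2* and *Cdkn2a*, of which the first pair passed the adjusted threshold.

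In level per kb of exon union, the order in WT was *Ccnb1* (2899 ± 296, SD, n = 3), *Ccne1* (1884 ± 299), *Ccna2* (1599 ± 130), *Ccnd1* (1077 ± 33.3), *Cdkn2a* (246 ± 47.2), *Cdkn1b* (213 ± 42.6), *Ccnd3* (205 ± 22.0), *Ccne2* (137 ± 5.27), *Ccnd2* (59.2 ± 14.7) and *Cdkn2b* (31.8 ± 2.67). The ranges over the 3 WT libraries overlapped between the neighbours *Ccne1* and *Ccna2*, and among *Cdkn2a*, *Cdkn1b* and *Ccnd3*, and between no other neighbours. In KO, *Ccna2* (1731 ± 130) stood above *Ccne1* (1636 ± 132). *Ccne1* was above *Ccna2* in each WT library, at 2100 against 1608 per kb in replicate 1, 2009 against 1724 in replicate 2 and 1542 against 1465 in replicate 3. It was below *Ccna2* in each KO library, at 1743 against 1777, 1677 against 1832 and 1489 against 1585. This crossing was seen after the values were known and carries no test, and it held with the longest transcript as length. *Ccnd3* had rank 7 in WT and 6 in KO with the exon union, and rank 5 in both with transcript lengths.

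**Figure D3:**
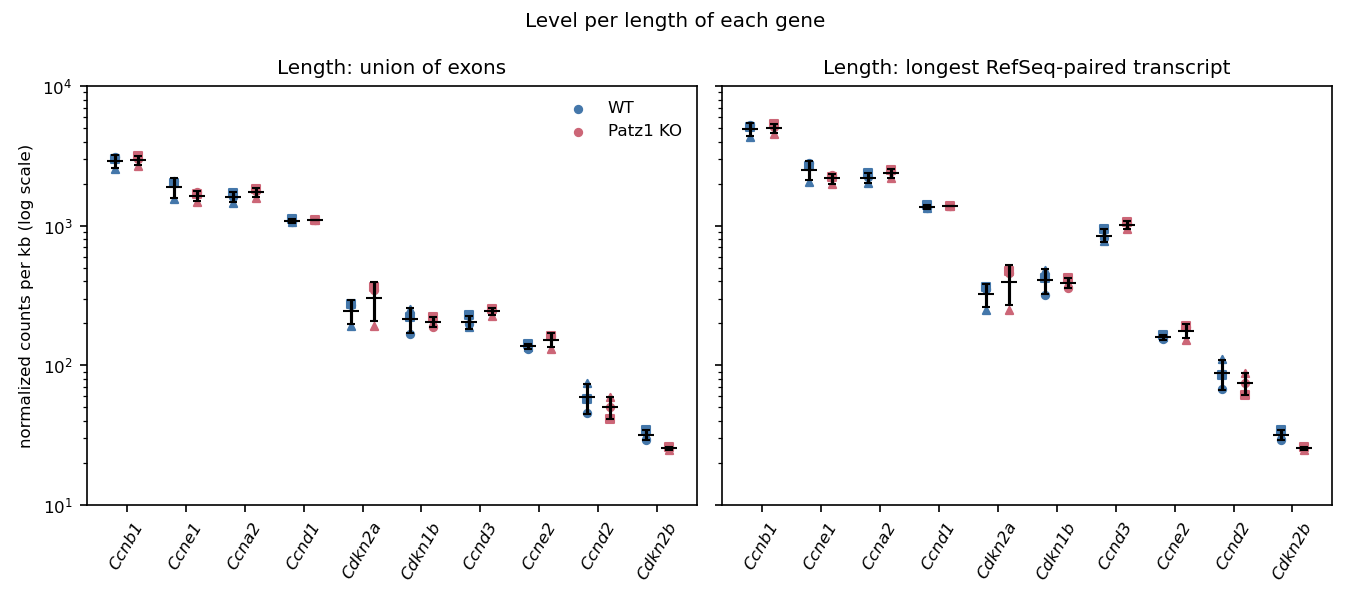
Normalized counts per kb (log axis) of the 10 genes in WT and *Patz1* KO libraries, with the union of exons (left) or the longest transcript paired with a RefSeq mRNA (right) as length. Points are libraries and black bars mean ± SD (n = 3). *Ccnb1*, *Ccne1*, *Ccna2* and *Ccnd1* hold the top ranks and *Cdkn2b* the lowest under both lengths, while *Ccnd3* lies among the inhibitors *Cdkn2a* and *Cdkn1b* on the left and above them on the right.

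The other genes of the cell cycle machinery were read from 9 lists of 97 genes, of which 96 had an adjusted p. DESeq2 called 6 of the 96, *Cdkn1c* and *Id1* higher in KO and *Cdk6*, *Ccng1*, *Cdc27* and *Hmmr* lower. This is near the share over all genes tested (7.49%, with 2.7% higher and 4.78% lower), against which the count in each list below is to be read. None of the 10 cyclin and inhibitor genes lies on chromosome 11, but *Ccng1*, *Cdc27* and *Hmmr* do, as does *Patz1*. Of 913 expressed genes on that chromosome 91% were lower in KO (median on the log2 scale -0.26), against 42.5% on the other autosomes (median 0.030), and 20.5% of its tested genes were called lower. All 10 listed genes on chromosome 11 were below 0, with a median of -0.28, and the 87 elsewhere had a median of 0.036. With the median of chromosome 11 set to 0 in each library, where 5.81% of all genes were called and 3.98% of those on chromosome 11 were called lower, *Ccng1* and *Hmmr* were not called, *Cdc27* was called lower and *Skp1a*, of the turnover list, was called higher. Without the centring *Skp1a* was near 0 (log2 fold change -0.023, DESeq2 adjusted p = 0.952), so its call depends on the shift applied to that chromosome.

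Among the CDKs and their activating kinase, 1 of 7 genes fell and 0 rose. The gene was *Cdk6*, a partner of the D-type cyclins, with 595, 530 and 591 normalized counts in WT and 432, 345 and 447 in KO. The groups did not overlap, and the log2 fold change was -0.50 ± 0.14 (DESeq2, adjusted p = 0.0118). The call was lost when WT replicate 1 (log2 fold change -0.46, adjusted p = 0.153), KO replicate 1 (-0.55, 0.0524) or KO replicate 2 (-0.38, 0.23) was left out. *Cdk4*, the other such partner, ran from 10394 to 12776 in WT and from 11683 to 13556 in KO and was not called.

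Of the CDK inhibitors outside the set, 1 of 5 rose and 0 fell. *Cdkn1c*, the third Kip family gene and an imprinted one, gave 68.6, 128 and 104 normalized counts in WT and 212, 316 and 288 in KO, without overlap between genotypes. Its log2 fold change was 1.45 ± 0.25 (DESeq2, adjusted p = 4.82e-07), and it was called under each of the 14 alternatives. *Cdkn1a*, the Kip family gene induced by p53, gave 1029, 1287 and 1128 in WT and 941, 1321 and 1039 in KO and was not called (log2 fold change -0.059, adjusted p = 0.919 by DESeq2). Among the other cyclins, 1 of 7 genes tested fell, *Ccng1*, a p53 target, by 0.28 on the log2 scale (DESeq2, adjusted p = 0.0303; not called by edgeR, adjusted p = 0.0801). It was also lost when WT replicate 2 (log2 fold change -0.27, adjusted p = 0.227), WT replicate 3 (-0.26, 0.0578), KO replicate 1 (-0.24, 0.302) or KO replicate 2 (-0.30, 0.123) was left out.

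In the list of cyclin and inhibitor turnover, 1 of 12 genes fell and 0 rose. *Cdc27*, a subunit of the anaphase-promoting complex that marks mitotic cyclins for destruction, gave 5653, 5194 and 5457 in WT and 3684, 3666 and 3898 in KO (log2 fold change -0.54 ± 0.090, DESeq2 adjusted p = 2.42e-07). Of the regulators of D-type cyclins and of the Ink4-Arf locus, 1 of 11 rose and 0 fell. The gene was *Id1*, an inhibitor of basic helix-loop-helix factors, with 343, 405 and 498 in WT and 591, 670 and 706 in KO (log2 fold change 0.68 ± 0.15, DESeq2 adjusted p = 0.000488). *Trp53*, the p53 gene, was not called without the block (log2 fold change -0.28, DESeq2 adjusted p = 0.243) and was called with it (adjusted p = 0.000182). It is on chromosome 11.

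Target genes of the cell cycle programme were read against the same shares. None of 18 genes of replication and its onset passed, their median on the log2 scale was 0.035, and the gene nearest to the threshold was *Tk1*, on chromosome 11 (log2 fold change -0.32, DESeq2 adjusted p = 0.0693, and 0.000853 with the block). Of 18 mitotic genes 1 fell and 0 rose, *Hmmr*, which encodes a spindle protein and gave 5468, 4597 and 4608 in WT and 3624, 3376 and 3626 in KO (log2 fold change -0.47 ± 0.10, DESeq2 adjusted p = 0.000341), and the list had a median of 0.018. None of 13 pocket protein and E2F genes passed, with *E2f7*, a repressor of the family, nearest at 0.41 (DESeq2 adjusted p = 0.119, and 0.0377 with the block), and none of 5 kinases and phosphatases that switch CDKs, with *Pkmyt1*, an inhibitory kinase of CDK1, nearest at -0.38 (adjusted p = 0.237). Counted at an unadjusted p under 0.05, these last lists held 2 of 18 replication genes, 4 of 13 and 1 of 5, and edgeR called 0 in each. The share over all genes at that threshold was 17.2%. With the replicate block 19 of the listed genes were called, 9 higher and 10 lower, where the same fit called 14.6% of all genes (6.68% higher and 7.95% lower).

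**Figure D4:**
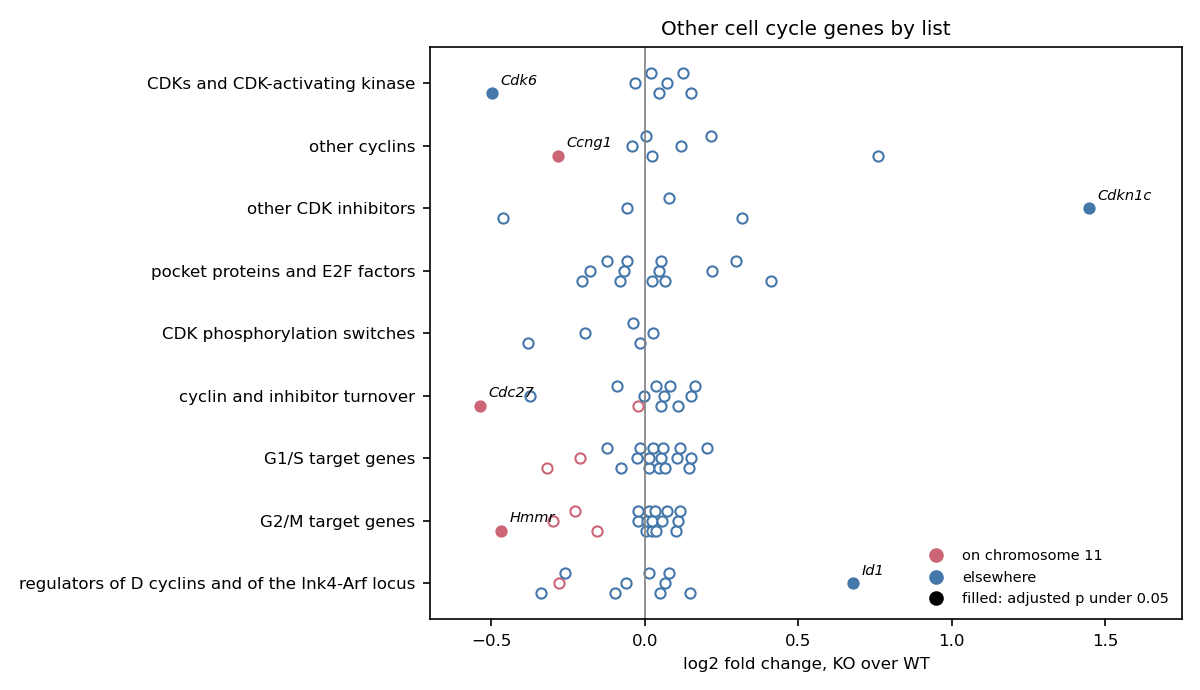
Log2 fold change of KO over WT (x axis) for the 96 listed cell cycle genes with an adjusted p, 1 row per list, with filled points for genes called by DESeq2 and red points for genes on chromosome 11. Filled points are few, red points lie left of 0, and *Cdkn1c* stands farthest to the right at 1.45.

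The gene whose normalized level most resembled that of each member over the 6 libraries was sought among 11515 genes with a mean of at least 50, as Pearson's r of log2 values. It was *Mmp17* for *Ccnd1* (r = 0.994), *Sprtn* for *Ccnd2* (0.998), *Hif1a* for *Ccnd3* (0.996), *Relb* for *Ccne1* (0.997) and *Dctn6* for *Ccne2* (0.992). It was *Tnfaip8* for *Ccna2* (0.999), *Strap* for *Ccnb1* (0.998), *Plk3* for *Cdkn1b* (0.989) and *Zmym2* for *Cdkn2a* (0.995). *Cdkn2b* was too low to be included. Each is the highest of 11515 values over 6 libraries that share depth and replicate structure, and is given as a description.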

How the data were processed

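RNA-seq libraries, 3 of WT and 3 of *Patz1* KO ESCs, were grouped by their sample titles. The authors deposited unnormalized read counts per gene symbol, 1 file per library. Reads had been mapped to mm10, and the submitters' processing notes name TopHat2 2.1.1, Bowtie2 2.3.1.0, featureCounts 1.6.2 and DESeq2. The annotation, strand setting and treatment of duplicate reads are not given in the sources used here, so reads shared by overlapping genes are uncertain.

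Genotypes were compared with DESeq2 1.42.0 under R 4.3.3, with the Wald test named in the study's methods, median-of-ratios size factors, genotype as the model term and independent filtering at its default of 0.1. An absolute log2 fold change under 0.5 was tested in the same fit. Intervals are 95% and cover counting error only where they are Poisson intervals. Alternatives were edgeR 4.0.16 (quasi-likelihood), limma-voom (limma 3.58.1), TMM size factors, a filter of 10 counts in 3 libraries, no independent filtering, a replicate block, and leaving out each library or both replicate 3 libraries. Centring chromosome 11 and RefSeq-paired lengths were added after seeing the data. The code was tested on simulated data.

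Libraries were paired by replicate number, which is an assumption, since the sources used here do not say that same-numbered libraries were made together. Over 11524 genes, deviations from the genotype mean correlated at 0.469, 0.619 and 0.684 between same-numbered libraries. Between differently numbered libraries the values were 0.138 (WT 2, KO 1) and 0.0766 (WT 1, KO 2). They were -0.542 to -0.369 where 1 of the libraries was a replicate 3. Deviations sum to 0 within a genotype, so a replicate 3 difference common to both genotypes contributes to all these values. Positions and lengths came from GENCODE M21 (GRCm38). A floor of 3 counts equals 1.69 to 8.21 normalized counts.

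Members and gene lists were chosen with earlier results of these data known. The genes named are all members, *Patz1*, listed genes under the threshold (otherwise the one with the smallest p), the highest marker of each list, and the most alike gene per member. *Cdk4*, *Cdkn1a*, *Trp53*, *Skp1a*, *Thy1*, *Zfp42*, *Tdgf1*, *Col1a1*, *Col1a2*, *Rn45s*, *Lars2*, the markers at the floor and the overlapping genes were named beyond this rule.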

Additional observations from a re-analysis of the deposited data

How the results depend on the processing

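Over the 10 cyclin and inhibitor genes and 14 alternatives, 130 fold changes kept their direction and side of the threshold, 4 passed the threshold (*Ccnd3* with the replicate block; *Ccne1* with the block, without WT replicate 3 and without both replicate 3 libraries) and 6 changed sign. The sign changes were *Ccnb1* when WT replicate 3 (-0.061) or KO replicate 2 (-0.024) was left out (range over single libraries left out -0.061 to 0.086), and *Cdkn1b* with limma-voom (0.0030), after dropping WT replicate 3 (0.071) or KO replicate 1 (0.011; range -0.20 to 0.071), and after dropping both replicate 3 libraries (0.072), none of them called. The replicate block raised the count over all genes from 1146 to 2131 and that of the set from 0 to 2, and gave 3 other cyclins, 3 pocket protein and E2F genes, 3 replication genes, 3 mitotic genes and 4 regulators. Without both replicate 3 libraries, 1332 genes over all, 1 gene of the set, 2 other cyclins, 2 replication genes, 2 mitotic genes and 2 regulators were called. edgeR called 0 other cyclins. With chromosome 11 centred, 0 other cyclins, 0 mitotic genes and 2 turnover genes were called. Leaving out each library in turn gave 583 to 1341 genes over all, 0 to 1 in the set, 5 to 7 of the set within the bound of 0.5 (8 with the block and 8 without both replicate 3 libraries), 0 to 1 CDKs, 0 to 1 other cyclins, 0 to 1 pocket protein and E2F genes, 0 to 1 replication genes, 1 to 3 mitotic genes and 1 to 2 regulators. The cause of these shifts was not tested. *Cdkn2b* rests on 13 to 71 counts per library.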
